A study of Mus musculus with 6 samples.

Results

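Olfactory receptor genes lie in a few large clusters, and 6 windows of the mouse build mm9 that hold such clusters are described here: chr2:85.0-90.0 Mb, chr7:109.6-116.0 Mb, chr9:37.5-40.2 Mb, chr10:128.4-129.9 Mb, chr16:58.5-59.6 Mb and chr19:12-14 Mb. An island, which is a broad region enriched in ChIP reads over a control, was counted as a member when its midpoint lay in a window. The 6 windows span 18.7 Mb, or 0.756% of the length of the 19 autosomes, and held 308 of the 46507 islands of the series. Of these, 130 of 15585 came from spermatocytes, 133 of 17340 from round spermatids and 45 of 13582 from wild-type germ cells. The rule uses positions alone.

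The series measured where TH2B, the histone H2B variant of the testis, sits on chromatin in male germ cells of adult mice. It has 6 libraries, 3 of ChIP and 3 of input, with 1 library per group and no replicates. In Th2b+/tag mice, which carry 1 copy of the gene fused to His, Flag and Ha tags at its C-terminal end, an anti-HA antibody (Abcam, ab9110) was used on meiotic spermatocytes and on post-meiotic round spermatids, so these 2 libraries see the product of the tagged copy. In wild type mice an anti TH2B antibody was used on total male germ cells, a mixture in which the stages were not separated. The protocol mentions a pooled fraction of both cell types after the BSA gradient, which was read as fractions pooled within each cell type. The lists of islands come from the 3 ChIP libraries, and antibody, genotype and cell population all differ between the tagged lists and the wild-type list. Anti-HA ChIP of cells without the tag was not analysed here.

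Olfactory receptors are G protein-coupled receptors with which sensory neurons of the nose detect odorants. They form the largest gene family of the mouse, their coding sequence usually lies in a single exon, and many copies are pseudogenes. Each mature sensory neuron expresses a single allele of a single receptor gene and keeps the others in silent chromatin, and a subset of the genes is known to be transcribed in the testis. TH2B takes the place of much of the somatic H2B from meiosis on and remains until protamines replace the histones. In the RefSeq table of the later assembly GRCm38, 1428 entries have an olfactory receptor symbol, 1110 of them protein coding and 317 pseudogenes. The 6 chromosomes with a window carry 1066 of them, with 377 on chromosome 2, 294 on chromosome 7, 179 on chromosome 9, 91 on chromosome 19, 80 on chromosome 10 and 45 on chromosome 16. When receptor genes with at most 5 other genes between them were joined, the largest cluster was that of chromosome 2, with 293 receptor genes between Lrrc55 and Ptprj, a receptor-type tyrosine phosphatase gene. The largest on chromosome 7 had 93 receptor genes and ended next to Hbb-bt, a beta-globin gene, that of chromosome 9 had 126 and ended next to Zfp202, and that of chromosome 16 had 32 with no other gene among them. These names were not carried over to mm9, so the gene content of the windows was taken from their definition, and no island was assigned to a gene.

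Tagged TH2B islands were as dense in the olfactory receptor windows as around them or denser, depending on the windows and flanks used, whereas islands of the anti-TH2B ChIP were much sparser there. In spermatocytes the windows held 6.95 islands per Mb (95% interval 5.81 to 8.25). Round spermatids had 7.11 (5.95 to 8.43) and the wild-type library 2.41 (1.76 to 3.22). The 5 Mb on either side of each window, 55.1 Mb in all, held 316, 344 and 320 islands in the same order, which is 5.74, 6.24 and 5.81 per Mb. The ratio of windows to flanks was 1.21 (0.980 to 1.49) in spermatocytes and 1.14 (0.925 to 1.40) in round spermatids, so with all 6 windows pooled neither tagged list differed from its flanks beyond counting error. That call depends on the windows and flanks used. The chr16 flanks held 106 of the 316 spermatocyte and 95 of the 344 round spermatid flank islands around a window of 1.1 Mb. Without the chr16 window and its flanks the ratios were 1.49 (1.18 to 1.87) and 1.33 (1.06 to 1.65), both above 1 beyond counting error. With flanks of 2 Mb they were 1.36 (1.05 to 1.76) and 1.31 (1.02 to 1.69). Leaving out chr2 instead gave 1.09 (0.843 to 1.39) and 0.975 (0.760 to 1.24). Leaving out chr7 gave 1.04 (0.809 to 1.33) and 1.18 (0.931 to 1.47). The spermatocyte interval also lay above 1 without chr10 or without chr19. In wild-type germ cells the ratio was 0.414 (0.296 to 0.567), which lies below 1 beyond counting error. Intervals are exact (Poisson for a density, conditional binomial for a ratio) and cover counting error alone. Without replicates the spread between animals or library preparations is unknown, and no p-value was computed. The intervals also treat islands as independent, so uneven spread along the chromosomes is not covered. By window, flank density ran from 1.70 (chr7) to 10.6 (chr16) per Mb in spermatocytes and from 1.8 (chr16) to 10.2 (chr7) in the wild-type list.

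**Figure D1:**
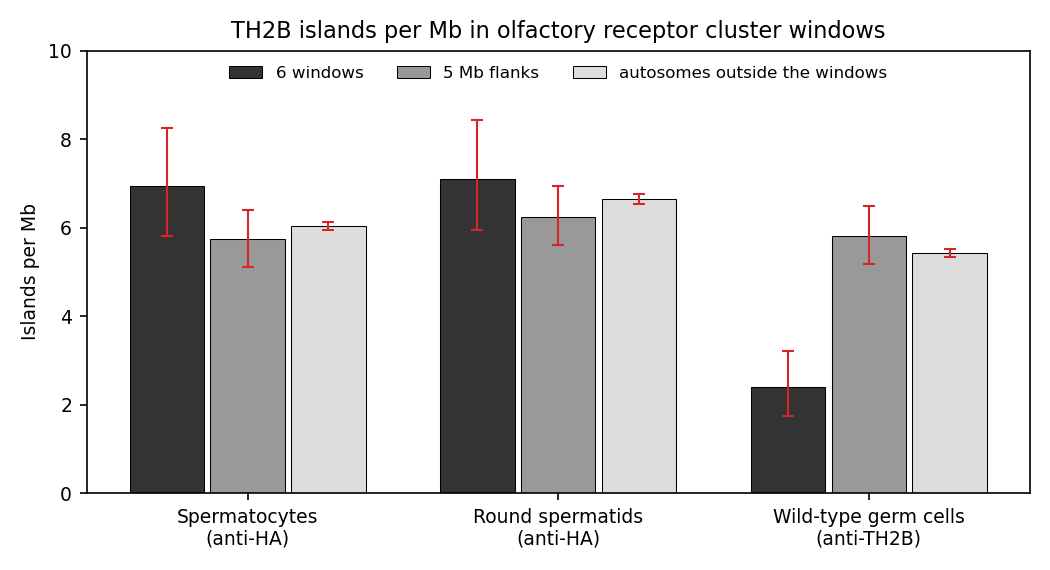
Islands per Mb (vertical axis) in the 6 olfactory receptor windows, their 5 Mb flanks and the autosomes outside the windows, for the 3 lists. Bars start at 0 and red lines are exact 95% Poisson intervals. The wild-type bar of the windows stands at 2.41, beside 5.81 in the flanks, while the tagged bars of windows and flanks lie between 5.74 and 7.11.

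The same order held against the whole genome. Autosomes outside the windows had 6.04 islands per Mb in the spermatocyte list, 6.65 in the round spermatid list and 5.43 in the wild-type list, and the windows stood at 1.15 (0.961 to 1.37), 1.07 (0.895 to 1.27) and 0.443 (0.323 to 0.593) times these. Spermatocyte islands covered 2.39% of the windows, those of round spermatids 2.25% and wild-type islands 0.687%. In the flanks they covered 2.25%, 2.26% and 1.57%. Set against each other, wild-type islands numbered 0.346 times those of spermatocytes in the windows (0.241 to 0.489) and 1.01 times in the flanks (0.864 to 1.19). The first ratio was 0.342 times the second (0.235 to 0.496, log-scale normal interval). With round spermatids in place of spermatocytes, the ratios were 0.338 in the windows (0.236 to 0.478) and 0.930 in the flanks (0.796 to 1.09), and the first was 0.364 times the second (0.251 to 0.527). The part of depth in these ratios was not tested. Antibody, genotype and cell population cannot be told apart in this difference.

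Fewer wild-type islands were listed in 5 of the 6 windows than their own flanks would give. The chr2 window, on the chromosome with the largest receptor cluster, had 7 wild-type islands (1.40 per Mb) beside 44 in spermatocytes (8.80 per Mb) and 45 in round spermatids (9.0 per Mb). The chr7 window had 16 wild-type islands (2.50 per Mb) beside 45 (7.03 per Mb) and 31 (4.84 per Mb). The chr9 window had 8 wild-type islands (2.96 per Mb), 16 in spermatocytes (5.93 per Mb) and 18 in round spermatids (6.67 per Mb). These 3 windows had wild-type ratios to their own flanks of 0.350 (0.132 to 0.790), 0.245 (0.135 to 0.417) and 0.406 (0.169 to 0.843), all below 1 beyond counting error. At chr2 this rests on the right flank, with 33 wild-type islands (6.6 per Mb), since the left flank had 7, or 1.4 per Mb, as the window did. The 3 smaller windows gave wild-type ratios whose intervals contained 1: 0.728 for chr10 (0.134 to 2.61, 3 islands), 0.548 for chr19 (0.228 to 1.14, 8 islands) and 1.52 for chr16 (0.286 to 5.19, 3 islands). The chr10 window ends near the end of the chromosome, so its right flank measured only 0.0933 Mb.

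The tagged lists had no direction common to all windows. Spermatocyte islands were denser than in their flanks in 3 windows and sparser in 3, and round spermatid islands denser in 5 and sparser in 1. Both tagged lists passed 1 beyond counting error at chr2, with ratios of 1.57 (1.03 to 2.37) in spermatocytes and 1.91 (1.24 to 2.95) in round spermatids, and at chr7, with 4.14 (2.32 to 7.71) and 1.86 (1.07 to 3.27). At chr2 the spermatocyte excess rests mostly on the right flank, with 3.2 islands per Mb, since the left flank had 8.0 beside 8.80 in the window. For round spermatids the right flank had 3.4 and the left 6.0 per Mb, beside 9.0 in the window. The chr7 value rests on poor flanks, which held 17 spermatocyte islands (1.70 per Mb) and 26 of round spermatids (2.60 per Mb) but 102 wild-type islands (10.2 per Mb). Around the chr16 window the flanks were the rich part for tagged TH2B, with 10.6 spermatocyte and 9.5 round spermatid islands per Mb, beside 1.8 in the wild-type list. When each window was weighed against its own flanks by length, 83.2 spermatocyte islands, 93.9 round spermatid islands and 126 wild-type islands were expected, and the observed numbers were 1.56, 1.42 and 0.358 times these. This weighting was added after seeing the data. It moved the tagged ratios out of their counting intervals and left the wild-type ratio inside its own.

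**Figure D2:**
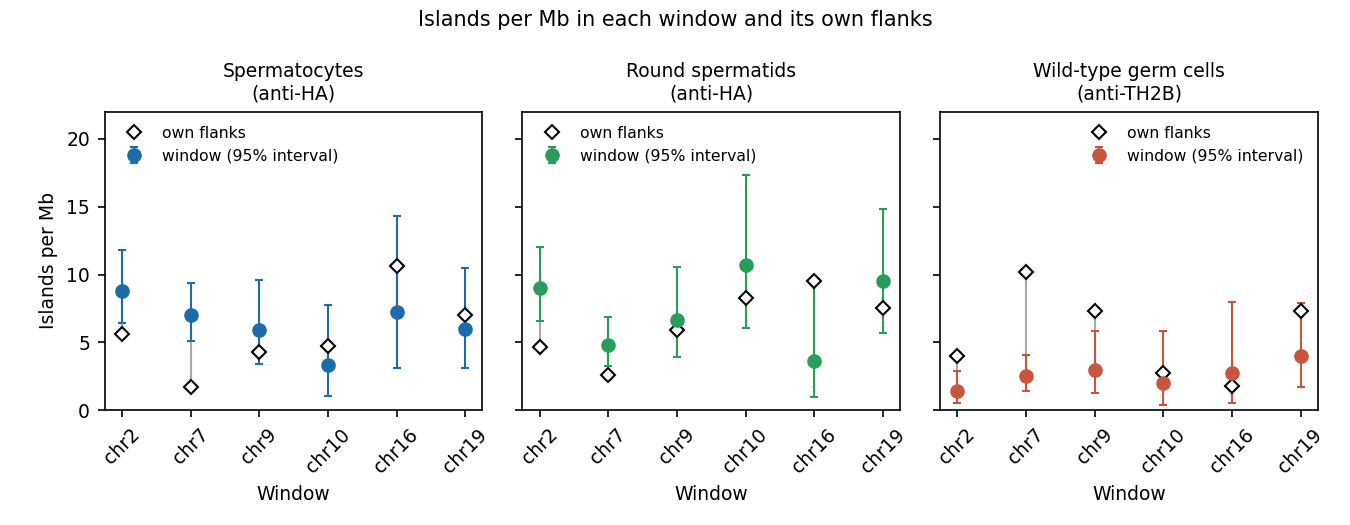
Islands per Mb (vertical axis) in each of the 6 windows (filled circles, with exact 95% Poisson intervals) and in its own flanks (open diamonds), 1 panel per list. Wild-type circles lie below their diamonds in 5 of 6 windows, with chr16 as the exception, while tagged circles lie on either side.

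With the windows pooled, wild-type density was lower deeper than 0.5 Mb inside an edge than in the last Mb outside. Over the 5 Mb outside, taken 1 Mb at a time with both sides of all windows pooled, wild-type density ran from 5.18 to 6.27 islands per Mb, and in the last Mb before the edge it was 5.50 (4.21 to 7.06). In the first 0.5 Mb inside it was 3.83 (2.43 to 5.75), and this interval overlapped that of the last Mb outside. From 0.5 to 1 Mb inside it was 1.52 (0.612 to 3.14), and deeper than 1 Mb 1.85 (1.04 to 3.05). Spermatocyte islands had 5.23 per Mb in the last Mb outside and 7.5, 7.17 and 6.42 per Mb at those 3 depths inside. Round spermatid islands had 5.86 outside and then 10.3 (7.92 to 13.2), 6.74 (4.58 to 9.57) and 4.94 (3.53 to 6.72), so their density was highest just inside the edges, where its interval lay above that of the Mb outside. Only the chr2, chr7 and chr9 windows are wide enough to hold positions deeper than 1 Mb, so the last value comes from 8.10 Mb of those 3 windows. The depths thus pool different windows. Single windows were not profiled, so a change with depth within a window was not tested.

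**Figure D3:**
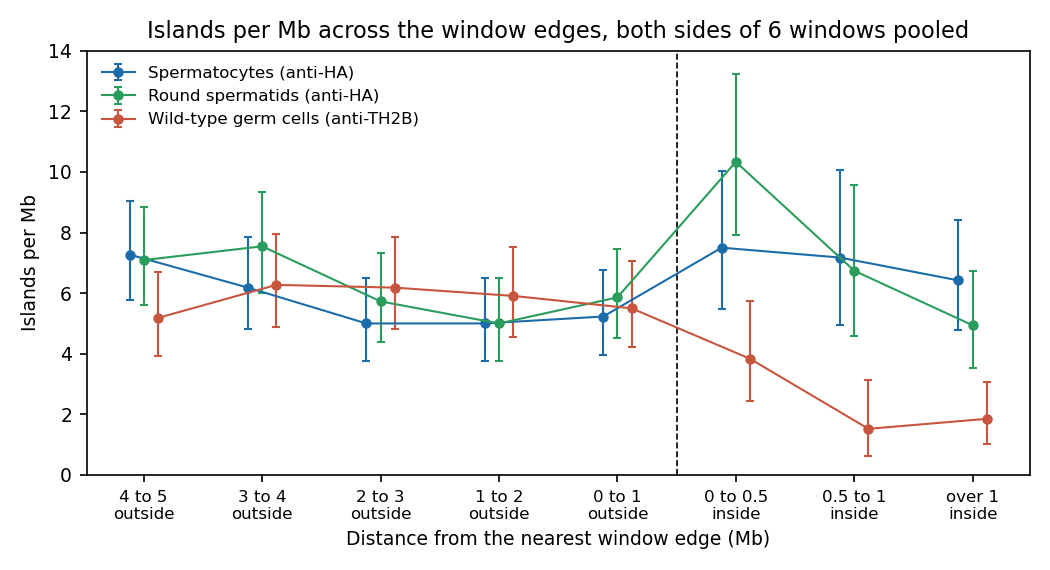
Islands per Mb (vertical axis) by distance from the nearest window edge in Mb (horizontal axis, outside to the left of the dashed line and inside to the right), pooled over both sides of the 6 windows, with exact 95% Poisson intervals. Wild-type density goes from 5.50 in the last Mb outside to 1.52 at 0.5 to 1 Mb inside, and the tagged densities do not go below 4.94 inside.

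Long stretches of the windows had no wild-type island. The longest was 1.54 Mb, at chr2:87507001-89049200, and chr7:110518401-111989400 had 1.47 Mb, chr10:128530401-129756200 had 1.23 Mb and chr9:38531601-39746000 had 1.21 Mb. In spermatocytes the longest stretch in any window was 0.791 Mb, at chr7:112609001-113400400, and in round spermatids it was 1.12 Mb, at chr7:112249401-113372800. Those 2 tagged stretches overlap, so this part of the chr7 window was poor in both. Around the ends of these stretches, 4 wild-type islands lay close together, at chr7:113382401-113385200, chr7:113401201-113402200, chr7:113404601-113407800 and chr7:113414001-113416600, with folds of 1.32, 2.68, 1.53 and 1.94. These 4 were singled out after their values were seen, and whether the wild-type members of this window were spread unevenly was not tested. Neighbouring midpoints within a window were a median of 73.0 kb apart in spermatocytes, 78.8 kb in round spermatids and 157 kb in wild-type germ cells. Stretches and spacings were not measured outside the windows. A list with fewer islands has longer ones, so these values restate the low wild-type density and are not a separate trait.

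**Figure D4:**
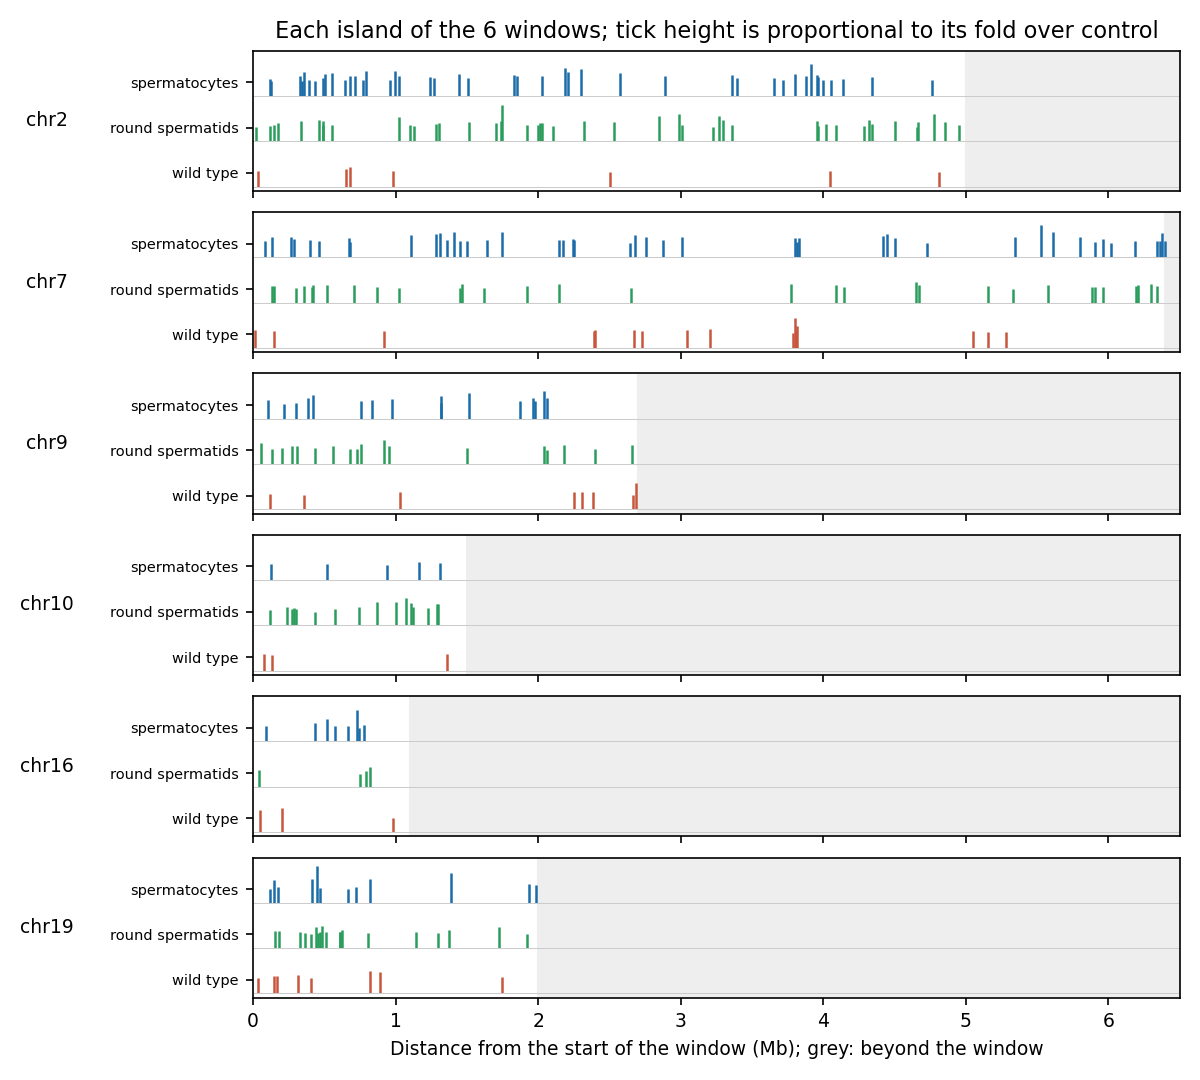
Position of each of the 308 islands as a tick, by distance from the start of its window in Mb (horizontal axis), with 1 panel per window and 1 row per list. Tick height is proportional to the fold over control, from 1.14 to 3.25, and the grey area lies beyond the window. Wild-type ticks are few throughout and nearly absent from the middle of the chr2 window, where tagged ticks continue.

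Islands were also counted in tiles of 0.5 Mb laid out without regard to the windows, and tiles that crossed a window edge were left out. No wild-type island lay in 15 of the 35 tiles wholly inside the windows (42.9%, Clopper-Pearson interval 26.3 to 60.6), beside 17.3% (16.3 to 18.4) of 4783 autosomal tiles outside the windows. For spermatocytes 1 of 35 tiles was empty (2.86%, 0.0723 to 14.9), beside 25.9% elsewhere, and for round spermatids 2 of 35 (5.71%, 0.700 to 19.2), beside 22.5%. Nearly every tile of the windows thus held a tagged island of each list, at means of 3.54 and 3.51 per tile beside 3.09 and 3.40 in the other autosomal tiles. At least 6 islands were found in 6 tiles of the windows for spermatocytes (17.1%, beside 20.8% elsewhere), in 8 for round spermatids (22.9%, beside 24.5%) and in 0 of 35 for wild-type germ cells (upper limit 10%, beside 12.7%). Outside the windows, tiles rich in tagged islands had fewer wild-type islands, and window tiles with as many tagged islands had fewer still. With up to 3 islands of the tagged lists together, the mean of wild-type islands was 1.6 over 5 window tiles and 3.35 over 1861 other tiles. With 7 to 9 it was 0.5 over 12 window tiles and 2.45 over 698 other tiles, and with 4 to 6 it was 1.17 over 12 and 2.74 over 829. With 10 or more it was 1.83 over only 6 window tiles and 2.19 over 1395 others. Base composition, repeats and mappability were not measured here, so what the windows share beyond their receptor genes was not tested.

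With the windows pooled, spermatocyte islands had higher folds than those around them, while the intervals of the medians of the other lists overlapped with their flanks. The fold of an island is the authors' ratio of ChIP to control reads after scaling. The median in the windows was 1.65 in spermatocytes (exact binomial interval of the median 1.57 to 1.75), beside 1.51 in the flanks (1.49 to 1.54) and 1.51 on the other autosomes. In round spermatids the medians were 1.503 (1.45 to 1.56) and 1.47 (1.45 to 1.51), and in the wild-type list 1.51 (1.44 to 1.55) and 1.48 (1.44 to 1.51). Taken singly, 4 of 6 windows had a spermatocyte median above that of their own flanks, beside 3 for round spermatids and 5 for the wild-type list. The spermatocyte exceptions were chr10 (1.45 beside 1.49) and chr16 (1.42 beside 1.52). Summed over the members, spermatocytes had 13657 ChIP and 9924 control reads, a pooled fold of 1.61 (1.57 to 1.65) beside 1.49 (1.47 to 1.51) in the flanks. Round spermatids had 15326 and 10854 reads, a pooled fold of 1.497 (1.46 to 1.53) beside 1.43 (1.41 to 1.44), and wild-type germ cells 5818 and 3970 reads, a pooled fold of 1.48 (1.42 to 1.54) beside 1.48 (1.46 to 1.502). A single flank island, chr9:35112401-35113400, held 7463 of the 42790 spermatocyte and 7540 of the 50574 round spermatid ChIP reads. Without it the pooled folds of the flanks were 1.52 (1.498 to 1.55) and 1.48 (1.46 to 1.502), so the spermatocyte members stayed above their flanks and the interval of round spermatids overlapped. The lowest and highest folds of a member were 1.196 and 3.21 in spermatocytes, 1.14 and 3.25 in round spermatids and 1.22 and 2.68 in the wild-type list. Whether the excess differs between the lists was not tested.

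A fold of at least 2, the rule of size used in place of a test, was reached by 27 of 130 spermatocyte members (20.8%, 14.2 to 28.8), beside 8.84% of all spermatocyte islands. Their flanks had 37 of 316 (11.7%, 8.38 to 15.8), and the share in the windows was 1.77 times that (1.13 to 2.79, log-scale normal interval). In round spermatids 10 of 133 members reached it (7.52%, 3.66 to 13.4), near the 6.37% of all round spermatid islands, and in the wild-type list 3 of 45 (6.67%, 1.40 to 18.3), near the 6.25% of all its islands. The ratios to the flanks were 1.18 (0.572 to 2.42) and 0.821 (0.259 to 2.60). By window, the spermatocyte members with such a fold were 9 of 44 at chr2, 9 of 45 at chr7, 3 of 16 at chr9, 0 of 5 at chr10, 1 of 8 at chr16 and 5 of 12 at chr19. At chr2 the flanks had as high a share, 23.2% beside 20.5% in the window, whereas at chr7 they had 5.88% beside 20% and at chr19 4.29% beside 41.7%. Without the chr19 window the spermatocyte ratio was 1.35 (0.827 to 2.20) and its interval contained 1, and without any 1 of the others it was 1.69 to 2.27.

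**Figure D5:**
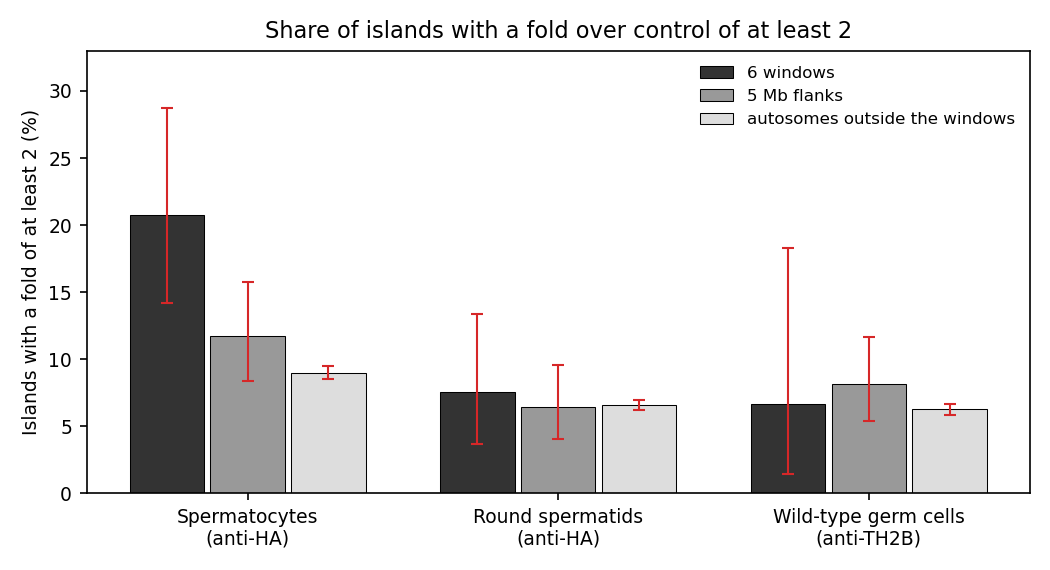
Share of islands with a fold over control of at least 2, in percent (vertical axis), in the 6 windows, their 5 Mb flanks and the autosomes outside the windows, for the 3 lists. Bars start at 0 and red lines are Clopper-Pearson 95% intervals. The spermatocyte share is 20.8% in the windows beside 11.7% in the flanks, and the intervals of the other lists overlap between areas.

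With the windows pooled, members of tagged lists were shorter than islands of the flanks. The medians were 3200 bp (3000 to 3400) beside 3800 bp (3600 to 4000) in spermatocytes. In round spermatids they were 3000 bp (2600 to 3200) beside 3400 bp (3200 to 3600), with intervals that touch. Those of the wild-type list were 2800 bp (2200 to 3000) and 2600 bp (2400 to 2600). Taken singly, spermatocyte members were longer than their flanks at chr7 (3400 beside 3200 bp) and chr19 (4200 beside 4000 bp). Round spermatid medians were equal at chr16 (3200 bp). Short islands had higher median folds than long ones in all 3 areas of each list. Among spermatocyte islands of up to 2400 bp, 38.2% of 34 members had a fold of at least 2 (22.2 to 56.4), beside 31.9% in the flanks and 26% on the other autosomes. From 2600 to 4000 bp it was 18.0% of 61 members (9.36 to 29.98), beside 12.8% and 7.54%, and over 4000 bp 8.57% of 35 (1.80 to 23.1), beside 2.50% and 1.93%. The share was thus higher in the windows within each of the 3 length classes, with intervals that overlapped those of the flanks. Control reads per kb of island had a median of 21.4 in spermatocyte members and 22 in their flanks (intervals 20.5 to 22.5 and 21.5 to 22.6), 26.3 and 24.6 in round spermatids (25.3 to 27.3 and 24.1 to 25), and 31.4 and 32.2 in wild-type germ cells (29 to 33.2 and 31.5 to 32.8). Only the round spermatid intervals did not overlap, with the denser control in the windows. The part of length and control density in the higher folds was not tested.

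By the authors' FDR, 81 of 130 spermatocyte members were at or below 0.0001 (62.3%, 53.4 to 70.7), beside 49.3% of that list and 53.5% of the flanks. In round spermatids it was 63 of 133 (47.4%), beside 48% of the list, and in wild-type germ cells 24 of 45 (53.3%, 37.9 to 68.3), beside 44.4%. The ratio of spermatocyte windows to flanks was 1.17 (0.984 to 1.38), within counting error, and that of windows to the other autosomes 1.24 (1.09 to 1.42).

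The tagged members of highest fold were 1000 to 2600 bp long. In spermatocytes the first was chr19:12447001-12449600, with 74 ChIP and 27 control reads and a fold of 3.21 (2.04 to 5.19). It was followed by chr7:115126801-115128000 with 2.84 (1.68 to 4.98), chr2:88911401-88913000 with 2.80 (1.85 to 4.35), chr16:59228401-59230400 with 2.78 (1.85 to 4.25) and chr19:13388001-13390400 with 2.67 (1.74 to 4.18). None of these 5 overlapped an island of another list, nor did 104 of all 130 spermatocyte members (80%), near the 79.2% of all spermatocyte islands. In round spermatids 4 of the first 5 lay in the chr2 window, led by chr2:86745601-86747800, with 95 ChIP and 31 control reads and a fold of 3.25 (2.15 to 5.04). The others were chr10:129472601-129473800 with 2.43 (1.53 to 3.98), chr2:87989201-87990200 with 2.41 (1.49 to 3.98), chr2:89774601-89777000 with 2.39 (1.65 to 3.51) and chr2:88265801-88268200 with 2.23 (1.56 to 3.25). These 5 too had no partner in another list, like 111 of all 133 round spermatid members (83.5%), near the 80.4% of all round spermatid islands. Each fold is an extreme of its list, and its counting interval is not corrected for that choice.

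Among wild-type members with at least 50 ChIP reads, the highest fold was that of chr7:113401201-113402200, with 61 ChIP and 23 control reads and a fold of 2.68 (1.64 to 4.54). It was followed by chr9:40185401-40186800 with 2.303 (1.54 to 3.51), chr16:58704601-58705600 with 2.14 (1.40 to 3.35), chr16:58547201-58550200 with 1.96 (1.43 to 2.70) and chr7:113414001-113416600 with 1.94 (1.41 to 2.69). The first and the fifth belong to the group of 4 close islands described above and each overlapped a spermatocyte island, unlike the other three. A member with 49 ChIP reads, chr19:12822801-12823400, had a fold of 1.98 and was left out of this order by the read minimum.

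Among the longest members, folds ran from 1.14 to 1.68. In spermatocytes they were chr2:88709601-88718200 (8600 bp, fold 1.44), chr7:115559001-115566800 (7800 bp, fold 1.67) and chr7:111744801-111752200 (7400 bp, fold 1.497), and the chr7 islands both overlapped an island of round spermatids. In round spermatids they were chr16:59242201-59251400 (9200 bp, fold 1.14), chr7:114924601-114933400 (8800 bp, fold 1.205) and chr2:89661201-89669000 (7800 bp, fold 1.68). In wild-type germ cells they were chr2:89808401-89815600 (7200 bp, fold 1.304), chr16:59477401-59483600 (6200 bp, fold 1.22) and chr19:12027801-12033600 (5800 bp, fold 1.38). The chr16 island of round spermatids also had the most control reads per kb of its list, 57.0, and overlapped the spermatocyte member with the most, chr16:59242401-59249400, with 66.4 per kb, 475 ChIP and 465 control reads and a fold of 1.196 (1.05 to 1.36). Both control densities were far above the medians of 26.3 and 21.4. In wild-type germ cells the highest was chr7:113382401-113385200, with 52.1 control reads per kb and a fold of 1.32.

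Few islands were shared between the lists, and the shares of tagged members overlapped by the other tagged list were near those elsewhere. Of the spermatocyte members, 20 overlapped a round spermatid island by at least 1 bp (15.4%, 9.66 to 22.8), beside 17.2% of all spermatocyte islands and 16.5% of those in the flanks. Of the round spermatid members, 20 overlapped a spermatocyte island (15.04%, 9.43 to 22.3), beside 15.5% of all and 15.1% of the flanks. A wild-type island overlapped 5.38% of spermatocyte members (2.19 to 10.8), beside 3.48% in the flanks. For round spermatid members it was 2.26% (0.468 to 6.45), beside 6.10%. Of the 45 wild-type members, 9 overlapped a tagged island (20%, 9.58 to 34.6), beside 10.6% of the whole list and 8.75% of the flanks, a ratio of 2.29 to the flanks (1.15 to 4.53). With at least 50% of both islands in common, 4.44% of the wild-type members were shared, and among members with at least 100 ChIP reads 8.82%, both under the share at 1 bp; the flanks were not set beside these values. At 1 bp, spermatocyte islands were the partners of 7 of these 9, or 15.6% of the 45 members (6.49 to 29.5), beside 3.44% of wild-type islands in the flanks. Round spermatid islands were the partners of 3, or 6.67% (1.40 to 18.3), near the 6.56% of the flanks. The 9 islands lay at chr2, chr7 and chr19, with none at chr9, chr10 or chr16, and had folds of 1.31 to 2.68.

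A single place in the windows had an island in all 3 lists, the region chr19:12405801-12411800. There the spermatocyte island chr19:12408601-12411800 had a fold of 2.13 (98 ChIP and 54 control reads), the round spermatid island chr19:12405801-12408800 had 1.28 (109 and 90 reads) and the wild-type island chr19:12407401-12409600 had 1.31 (104 and 80 reads). The 2 tagged islands meet only at their ends, and the wild-type island spans that joint.

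In 20 regions of the windows the tagged lists had overlapping islands, with a median fold of 1.64 in spermatocytes and 1.43 in round spermatids. The ratio of round spermatids to spermatocytes ran from 0.604 to 1.21, with a median of 0.899, beside a median of 0.987 over 51 such regions of the flanks. The lowest ratios were 0.604 (0.391 to 0.932) in the chr19 region of all 3 lists, 0.650 (0.390 to 1.08) at chr9:39540601-39542800 and 0.707 (0.506 to 0.989) at chr9:39558201-39564400. The highest were 1.21 (0.815 to 1.79) at chr2:86019001-86023800, 1.13 (0.734 to 1.73) at chr9:38254601-38258400 and 1.12 (0.804 to 1.57) at chr7:111744801-111752200. No region differed by 2-fold in either direction, and the interval of 2 of the 20 ratios left out 1, both below it, beside 4 of the 51 flank regions, also all below it. Each fold comes from the islands of its own list, which can differ in place and length, and both had to pass the caller's threshold.

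The meiotic and post-meiotic lists had nearly equal numbers of members, 130 and 133, a ratio of round spermatids to spermatocytes of 1.02 (0.797 to 1.31). In the flanks the ratio was 1.09 (0.932 to 1.27) and on the autosomes outside the windows 1.10 (1.08 to 1.13), so the windows did not differ from either beyond counting error (0.940 times the flanks, 0.706 to 1.25). Single windows gave ratios from 0.5 at chr16 (4 and 8 islands) to 3.2 at chr10 (16 and 5 islands, interval 1.12 to 11.2). The chr10 window was the only 1 of the 6 whose interval left out 1, without correction for the 6 looks, and its flanks had 42 and 24 islands. Among members with a fold of at least 2 the numbers were 10 and 27, a ratio of 0.370 (0.160 to 0.790). The flanks had 22 and 37 such islands, a ratio of 0.595 (0.334 to 1.03), and the whole lists 1105 and 1378, a ratio of 0.802 (0.740 to 0.869). The interval of the windows overlapped both, which does not show that the ratios are alike. At this fold the windows were not set against either by a ratio with its own interval, so whether they differ was not tested.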

How the data were processed

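ChIP-seq of TH2B was analysed from 3 deposited island lists, 1 per ChIP library. SICER and mm9 are named in the submitters' processing notes, and the names of the lists give a window of 200 bp and a gap of 600 bp. Aligner, versions and read filters: not given in the sources used here. The authors deposited, for each island, whole-number counts of ChIP and control reads, a p-value, an FDR (at most 0.00999) and a fold. That fold equals ChIP over control counts divided by 0.854 for spermatocytes, 0.944 for round spermatids and 0.989 for the wild-type list. Which library served as control is not named in the lists, and the input of the matching cells was assumed. The wild-type input carries the antibody label but is an input by its title. Island ends written as the last base or as the next base were brought to 1 convention, counted from 1. Depth is known only inside islands, with 2375595, 3061563 and 1872812 ChIP reads and 1966489, 2400549 and 1333472 control reads in the 3 lists.

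Flanks were 5 Mb on either side of each window, cut at chromosome ends, with mm9 lengths from GenomeInfoDb 1.38.1. Tiles of 0.5 Mb started at 3 Mb. All intervals are 95% (scipy 1.17.1, with numpy 2.4.6 and pandas 2.3.3 under Python 3.11.15), and plots used matplotlib 3.10.9. The counting was tested on simulated lists. By rule, the members named in each list were the 5 with the highest fold (minimum of 50 ChIP reads, met by 130, 132 and 44), the 3 longest and the 1 with most control reads per kb, then regions with islands in all lists and the 3 highest and 3 lowest ratios of shared tagged regions. The 4 close chr7 islands, the flank island with many reads and the member with 49 reads were singled out after their values were seen. Alternatives were an FDR of 0.0001, at least 100 ChIP reads, a limit of 2 times the median control density, a fold of at least 2, equal list lengths, any overlap, other flanks, covered bases, 50% reciprocal overlap, pooled folds and leaving out each window. The windows and comparisons were chosen with earlier results of these data known, and edge distances, tiles, gaps and length classes were added after seeing the data.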

Additional observations from a re-analysis of the deposited data

Results flagged for a closer look

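The contrast of windows with flanks went in opposite directions in the tagged and the wild-type libraries. The ratio of islands per Mb was 0.414 in the wild-type library and above 1 in both tagged libraries, at 1.21 in spermatocytes and 1.14 in round spermatids, although the intervals of the tagged ratios contained 1. With 1 library a group the difference between libraries was not tested against replicate error. Antibody, genotype and cell population cannot be told apart in it.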

How the results depend on the processing

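Of 151 alternatives, 134 left a value within the 95% counting interval given for it and 17 moved it out. The wild-type ratio of windows to flanks stayed between 0.340 and 0.488 in all of its 17 alternatives; among those with an interval, only that at a fold of at least 2, with 3 members, contained 1. The spermatocyte ratio was above 1 in 16 of 17 alternatives and the round spermatid ratio in 14 of 17. Their intervals lay above 1 in only 7 and 2 of these, where covered base pairs and the weighting by length have no interval. With at least 100 ChIP reads the ratios were 0.907 in spermatocytes and 0.904 in round spermatids. With each window's own flanks weighted by length, an alternative chosen after seeing the data, they were 1.56 and 1.42. At a fold of at least 2 the spermatocyte ratio was 2.15. Without the chr2 window the round spermatid ratio was 0.975, and by covered base pairs 0.992. Round spermatid over spermatocyte members were 0.778 at an FDR of 0.0001 and 0.370 at a fold of at least 2. The median fold at an FDR of 0.0001 was 1.81 for spermatocytes, 1.68 for round spermatids and 1.60 for the wild-type list, and with at least 100 ChIP reads 1.52 and 1.44 in the tagged lists. With 100 reads the median length was 4400 bp in spermatocytes and 3600 bp in round spermatids. Leaving out 1 window at a time gave ratios of windows to flanks of 1.04 to 1.49 for spermatocytes, 0.975 to 1.33 for round spermatids and 0.356 to 0.488 for the wild-type list. Shared spermatocyte members were 8.64% at an FDR of 0.0001, and shared wild-type members 8.82% with 100 reads and 4.44% with 50% reciprocal overlap. The cause of these shifts was not tested. A place with no island may have reads under the caller's threshold, so depth limits what a low density shows. No paired analysis was possible because each group has 1 library and no test was made.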
